A study of Mus musculus with 60 samples.

Results

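Calf muscle of Largemyd mice was compared directly with calf muscle of Dmdmdx mice at 21 days of age, with 5 arrays of each lineage out of the 60 arrays in the series, chosen by the lineage and age in the array titles. All mice are labelled male and none is described as treated. Dmdmdx mice carry a mutation in Dmd and lack dystrophin. Largemyd mice keep dystrophin and are a model of the dystroglycanopathies, in which alpha-dystroglycan lacks the sugar chains that bind laminin. The C57Bl/6 mice used as normal controls and the Dmdmdx/Largemyd double mutants of the same age, also 5 arrays each, are given beside the comparison where they show its origin. The labels name no strain background for the mutant lines, so effects of the mutations and of the background cannot be told apart. Each array holds RNA of 1 mouse, so the p-values describe a spread between mice. That spread, on which the standard errors also rest, is pooled over the 12 groups of all 60 arrays. It is not the spread of the groups compared alone. Most of the 60 arrays are from mice of 3 and 6 months. Some of these later arrays have high Xist or marrow markers, as described below. In whole muscle, fewer cells of a type and less RNA per cell cannot be told apart.

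Dystrophin and dystroglycan are parts of 1 membrane complex that ties the cytoskeleton of the muscle fibre to laminin in the surrounding basement membrane. Without either link fibres tear, die and are rebuilt from satellite cells, while macrophages clear the debris. In mouse models of dystrophin loss the first large wave of fibre death comes at about weaning age, so the age compared here is one of active damage and repair. The comparison asks in which genes muscle that lost the inner part of this link differs from muscle that lost its outer part.

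The values are log2 RMA expression values, and array means lay between 6.78 and 6.81 at 21 days. A difference is Largemyd minus Dmdmdx on the log2 scale, followed by its standard error. It was tested with limma over 19938 genes, and a gene passed with a Benjamini-Hochberg adjusted p under 0.05. Arrays are numbered 1 to 5 within a group as names only. The 27 lymph node and lymphocyte markers averaged 7.39 and 7.02 in Largemyd 1 and 2 and 7.88, 8.06 and 7.86 in Dmdmdx 1, 3 and 5, against 6.07 to 6.30 in the other arrays of both groups. Largemyd 1 and 2 also stood apart in a narrower spread of values over genes, with interquartile ranges of 2.66 and 2.63 against 2.8 to 2.99 in the other arrays of both groups. Their mean macrophage markers (8.68 and 8.49) and cell cycle genes (7.08 and 6.90) were the lowest of the 10 arrays. Fast fibre genes averaged 12.44 to 12.80 in the 10 arrays. Counts and named genes are also given without Largemyd 1 and Dmdmdx 1, 3 and 5, called the lymph node arrays, and without Largemyd 1 and 2. Largemyd 2, with a lower marker mean, stays in the former, so leaving out the 4 arrays does not remove the markers, and the median difference of the lymph node list goes from -0.51 to 0.23. With the marker mean as a covariate that median is 0.05.

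At 21 days 1782 of the 19938 genes passed (8.94%), 773 of them higher in Largemyd (3.88%) and 1009 lower (5.06%). The counts of the gene lists below are to be read beside these shares. Several, such as 3 of 70 oxidative phosphorylation genes higher, are near them. The median difference over all genes was 0.02. With array medians subtracted the split turned to 1021 higher and 832 lower, so which direction held more genes depended on the scaling. It turned as well without Largemyd 1 and 2 and was near even without the lymph node arrays. Of all genes, 102 passed with a difference of 2-fold or more (0.512%), 25 higher and 77 lower. The 5 arrays of a group lay wholly above or below those of the other in 1379 genes (6.92%), the Largemyd arrays above in 3.55% of all genes and below in 3.37%. The 1782 genes became 141 (71 higher, 70 lower) without the lymph node arrays, 1662 (594 higher, 1068 lower) with the lymph node marker mean as a covariate, of which 1321 were among the 1782, 555 (334 higher, 221 lower) without Largemyd 1 and 2, and 734 when only arrays of 21 days entered the fit. With only the 10 arrays compared in the fit, and so only their own spread, 723 genes passed. Leaving out 1 array gave 913 genes without Largemyd 1, 819 without Largemyd 2, 957 without Dmdmdx 1 and 1155 without Dmdmdx 3, and 635 genes passed whichever single array was left out.

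Of the genes chosen by the naming rule, 120 passed. Of these 22 passed without the lymph node arrays, 37 without Largemyd 1 and 2, and 50 with arrays of 21 days only. The 20 that passed under all 21 alternatives run (or all that could be run for them) were H2-Ea, Tpsab1, Mir136, Rps3a1, Pttg1, Agtr2, Dlk1, Dmd, Ocel1, Cnn1, Tagln, Kcna1 and Glo1, which were higher in Largemyd, and Ccr2, Olfr1372-ps1, Nxpe4, Sh2d1b1, Cd28, Sntb2 and Dhrs7c, which were lower. Each of the other 100 failed at least 1 alternative, and where the removal of a single array ended a call that array is named beside it.

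**Figure D1:**
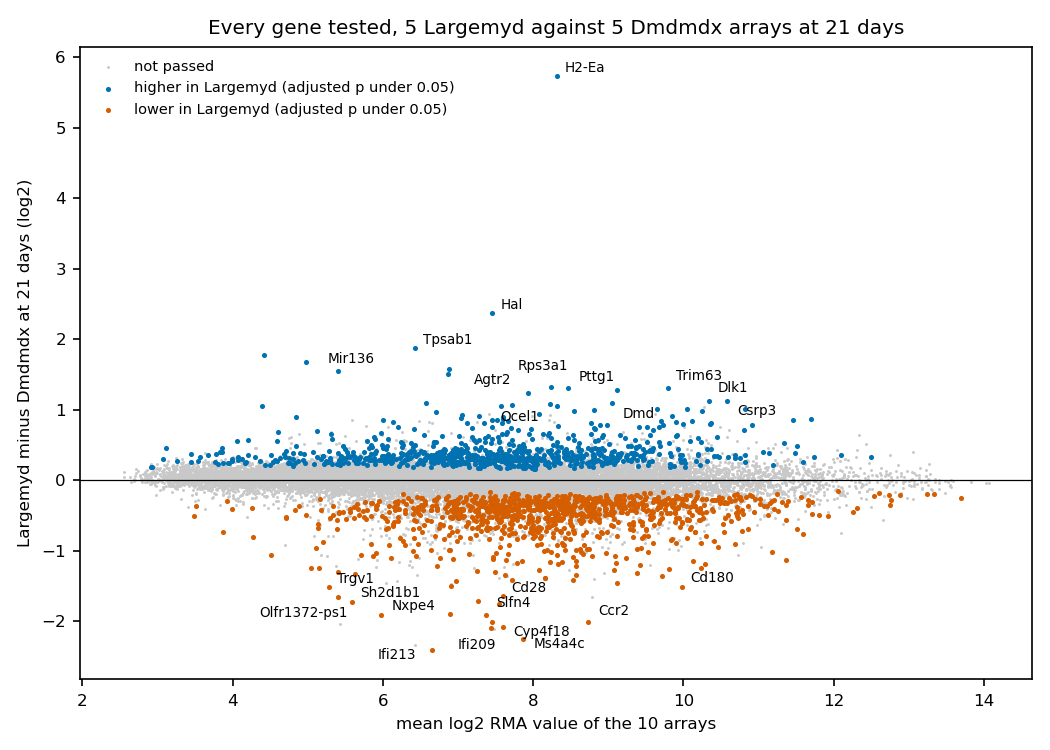
Difference between Largemyd and Dmdmdx at 21 days (vertical axis, log2) against the mean of the 10 arrays (horizontal axis, log2 RMA value), 1 point a gene. Blue points are the 773 genes that passed higher in Largemyd, orange points the 1009 that passed lower, grey points the rest. H2-Ea, at 5.74, lies far above all other genes, and the labelled falls lie between -1.51 and -2.41.

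Dmd, the dystrophin gene, carries the Dmdmdx mutation, and its level checks the labels. Its values were 9.51, 9.64, 9.67, 9.72 and 9.45 in the 5 Largemyd arrays and 8.41, 8.65, 8.83, 8.33 and 8.31 in the 5 Dmdmdx arrays. All Largemyd arrays lay above all Dmdmdx arrays, and the difference was 1.09 ± 0.18 (2.13-fold, adjusted p = 2.5e-05). The C57Bl/6 mean was 9.72 ± 0.34 (SD, n = 5), so Largemyd sat at the control level (difference from C57Bl/6 -0.12, adjusted p = 0.69). Utrn, the dystrophin homologue utrophin, overlapped between the groups, at 8.97 to 9.25 in Largemyd and 8.89 to 9.13 in Dmdmdx (0.07 ± 0.07, adjusted p = 0.63). Dag1, which encodes dystroglycan itself, overlapped as well, with a group mean of 10.94 ± 0.08 (SD) in Largemyd and 10.93 ± 0.07 in Dmdmdx (0.01 ± 0.10, adjusted p = 0.96).

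Among the 21 measured genes of the dystrophin-associated complex 2 were higher in Largemyd and 1 lower, with a median of 0.08. The second rise was Lama2, the laminin chain that glycosylated dystroglycan binds in muscle. It read 10.96, 10.94, 10.79, 10.64 and 10.42 in Largemyd and 9.98, 10.08, 10.16, 10.24 and 10.23 in Dmdmdx, without overlap (0.61 ± 0.14, adjusted p = 0.0022). It was 0.54 without the lymph node arrays (adjusted p = 0.24). The fall was Sntb2, beta-2-syntrophin, an adaptor that binds dystrophin and utrophin, at 8.38 to 8.59 in Largemyd and 8.87 to 9.0 in Dmdmdx (-0.43 ± 0.07, adjusted p = 1.2e-05). It too did not overlap. In the list 1 member passed in each direction without the lymph node arrays.

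Of 15 glycosylation genes that act on dystroglycan, 1 was lower in Largemyd and none higher (median -0.06). It was Pomt1, a subunit of the enzyme that attaches the first mannose (-0.30 ± 0.08, adjusted p = 0.013), and its call ended without Largemyd 2 (adjusted p = 0.13). Of 24 integrin and costamere genes 2 were higher and 1 lower (median 0.06). Krt8, a keratin of the costamere, was higher (0.92 ± 0.28, adjusted p = 0.029), as was Svil, the membrane-bound actin binder supervillin (0.29 ± 0.09, adjusted p = 0.031), and Itga6, a laminin receptor subunit, was lower (-0.33 ± 0.10, adjusted p = 0.034). Each of these calls ended without any of 5 or 6 single arrays. Krt8 needed Largemyd 1, 2 and 3 and Dmdmdx 1, 3 and 5 (adjusted p = 0.060 to 0.084 without one), Svil needed Largemyd 2, 3 and 4 and Dmdmdx 1 and 5 (0.055 to 0.098), and Itga6 needed Largemyd 1 and 2 and Dmdmdx 1, 2, 3 and 5 (0.054 to 0.17). Itga6 also missed the threshold with array medians subtracted. None of the 21 basement membrane genes passed (median 0.09), and of 20 membrane repair and fusion genes 1 passed, the phosphoinositide phosphatase Mtm1, lower in Largemyd (-0.29 ± 0.09, adjusted p = 0.044). Its call ended with array medians subtracted and without Largemyd 1, 2 or 3 or Dmdmdx 1, 2, 3 or 5 (adjusted p = 0.061 to 0.14).

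The single largest difference of the comparison was in H2-Ea, the alpha chain of the class II histocompatibility molecule I-E. It read 11.41, 10.83, 11.34, 11.11 and 11.23 in Largemyd and 5.52, 5.46, 5.21, 5.59 and 5.44 in Dmdmdx. No array came near the other group, and the difference was 5.74 ± 0.89 (53.4-fold, adjusted p = 1.2e-05). C57Bl/6 muscle, at 5.55 ± 0.17 (SD, n = 5), matched the low level. Mice of the H-2b haplotype, C57Bl/6 among them, are known not to transcribe H2-Ea. The double mutant was mixed, with a mean of 8.57 ± 1.74 (SD, n = 5).

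Tpsab1, a mast cell tryptase that C57Bl/6 mice are known to lack, read 7.14, 7.37, 7.74, 6.83 and 7.72 in Largemyd and 5.45, 5.59, 5.45, 5.47 and 5.49 in Dmdmdx. The groups were far apart (1.87 ± 0.15, 3.66-fold, adjusted p = 5.3e-13), and C57Bl/6 muscle was again low at 5.63 ± 0.10. It was the only rise among 13 mast cell and eosinophil markers (median 0.17). In the same list Il5ra, the eosinophil receptor for interleukin 5, was lower (-0.50 ± 0.16, adjusted p = 0.042), a call that ended without any single Largemyd array and without Dmdmdx 1, 3 or 5 (adjusted p = 0.057 to 0.13). Both Tpsab1 and H2-Ea kept their differences without the lymph node arrays, at 1.89 (adjusted p = 1.3e-07) and 5.6 (adjusted p = 0.016).

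Hal, histidine ammonia-lyase, which opens the breakdown of histidine, varied most among the Largemyd mice. It read 7.49, 7.34, 8.32, 10.68 and 9.40 in Largemyd and 5.89, 6.76, 6.24, 6.02 and 6.43 in Dmdmdx. The lowest Largemyd array was above the highest Dmdmdx array (2.38 ± 0.56, 5.19-fold, adjusted p = 0.0043), and without the lymph node arrays the difference was 2.54 (adjusted p = 0.14). Hal is an epidermal gene as well as a liver gene, and skin markers averaged 7.11, 6.28, 6.11, 7.00 and 5.95 in the 5 Largemyd arrays and 5.83, 5.94, 5.97, 5.96 and 6.76 in the 5 Dmdmdx arrays. Their part in the difference was not tested.

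Rps3a1, a ribosomal protein gene with many near-identical copies that the probes may share, stood at 8.35 to 9.31 in Largemyd and 7.45 to 7.75 in Dmdmdx (1.32 ± 0.16, adjusted p = 1.1e-07). Agtr2, the type 2 receptor of angiotensin II, read 9.0, 8.94, 8.08, 8.31 and 8.43 in Largemyd and 7.39, 7.58, 7.38, 7.24 and 6.96 in Dmdmdx, without overlap (1.24 ± 0.17, adjusted p = 1.4e-06). C57Bl/6 muscle was lower still, at 6.70 ± 0.37 (SD, n = 5), and Agtr2 was higher than in C57Bl/6 in both mutants, by 1.85 in Largemyd and 0.61 in Dmdmdx. These 2 differences share their controls. Ocel1 differed by 1.08 ± 0.08 (adjusted p = 1.9e-14), at 8.46 to 9.01 against 7.63 to 7.77, and the double mutant (8.57 ± 0.11) was near Largemyd while C57Bl/6 (7.5 ± 0.08) was near Dmdmdx.

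The deepest fall was that of Ifi213, an interferon-inducible gene of the DNA-sensing PYHIN family. It read 5.70, 5.31, 5.02, 6.02 and 5.18 in Largemyd and 9.03, 6.80, 8.98, 7.37 and 7.12 in Dmdmdx (-2.41 ± 0.41, adjusted p = 7.4e-05). Its relative Ifi209 differed by -2.09 ± 0.58 (adjusted p = 0.015), and Ms4a4c, a membrane protein of monocytes and lymphocytes, by -2.26 ± 0.48 (adjusted p = 0.0016). In none of the 3 did the groups overlap, and Dmdmdx 1 and 3, which carried lymph node markers, were the highest arrays of each. The C57Bl/6 array with the highest lymph node markers of all (9.07) stood at 8.29, 9.24 and 9.25 in Ifi213, Ifi209 and Ms4a4c, against 4.52 to 5.89 in the other 4 C57Bl/6 arrays. Dmdmdx 5, whose markers were also high, read 7.12 in Ifi213, below Dmdmdx 4 (7.37), whose markers were low. Largemyd 1 and 2, with raised markers, lay above Largemyd 3 and 5 in Ifi213 and below Largemyd 4. The part of lymph node tissue in these differences was not tested. The differences of the 3 genes without the lymph node arrays were -1.70, -1.13 and -1.32, and none passed (adjusted p = 0.14, 0.73 and 0.50). The call of Ifi209 also ended without Largemyd 1 or 2 or Dmdmdx 1 or 3 (adjusted p = 0.058 to 0.072).

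Ccr2, the receptor that brings inflammatory monocytes into injured muscle, read 6.51, 6.54, 8.16, 9.09 and 8.35 in Largemyd and 10.28, 9.84, 9.57, 9.65 and 9.33 in Dmdmdx. The Largemyd arrays spread widely and all lay below Dmdmdx (-2.01 ± 0.33, 4.01-fold lower, adjusted p = 3.0e-05). It held without the lymph node arrays (-1.71, adjusted p = 0.037) and without Largemyd 1 and 2 (-1.20, adjusted p = 0.020). In C57Bl/6 it was 6.54 ± 0.36 (SD, n = 5), the level of Largemyd 1 and 2. Cyp4f18, a cytochrome P450 of myeloid cells that inactivates leukotriene B4, was at 5.95 to 7.18 in Largemyd and 8.20 to 9.40 in Dmdmdx (-2.09 ± 0.37, adjusted p = 0.00010), and at -1.90 without the lymph node arrays (adjusted p = 0.063). Slfn4, a myeloid Schlafen gene, was spread by 1 mouse, Dmdmdx 1 at 10.80, over values of 6.77 to 8.81 in the other Dmdmdx arrays and 6.17 to 6.74 in Largemyd (-1.92 ± 0.53, adjusted p = 0.014), and did not pass without Dmdmdx 1 (adjusted p = 0.12). Cd180, a receptor of B cells and macrophages, was lower by 1.51 ± 0.41 on the log2 scale (adjusted p = 0.014) and lost its call without Largemyd 1 or 2 or Dmdmdx 1 (adjusted p = 0.053 to 0.076).

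Of the other deep falls, those of Sh2d1b1, Cd28, Nxpe4 and Olfr1372-ps1 also passed without the lymph node arrays, and that of Trgv1 did not. Sh2d1b1, a signalling adaptor of natural killer and myeloid cells, was at 4.50 to 5.13 in Largemyd and 5.76 to 7.19 in Dmdmdx (-1.72 ± 0.25, adjusted p = 3.1e-06) and differed by -1.72 without the lymph node arrays as well (adjusted p = 0.0031). Cd28, the T cell co-stimulatory receptor, read 7.11, 6.71, 6.54, 6.67 and 6.82 in Largemyd and 8.49, 8.26, 8.42, 8.25 and 8.67 in Dmdmdx (-1.65 ± 0.15, adjusted p = 7.0e-12). C57Bl/6 was as high as Dmdmdx (8.36 ± 0.32) and the double mutant as low as Largemyd (6.52 ± 0.38). In Nxpe4 Largemyd was likewise below Dmdmdx and C57Bl/6, with 5.67 to 6.49 in Largemyd, 7.72 to 7.92 in Dmdmdx and 8.11 ± 0.22 in C57Bl/6 (-1.90 ± 0.18, adjusted p = 6.4e-11). The pseudogene Olfr1372-ps1 was the reverse, near the C57Bl/6 mean of 4.82 ± 0.19 in Largemyd (4.75 to 5.25) and above it in Dmdmdx (6.57 to 7.15), a difference of -1.91 ± 0.14 (adjusted p = 5.9e-15). Trgv1, a variable segment of the T cell receptor gamma chain, was lower by 1.52 ± 0.26 on the log2 scale (adjusted p = 9.0e-05) and by 0.90 without the lymph node arrays (adjusted p = 0.29).

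**Figure D2:**
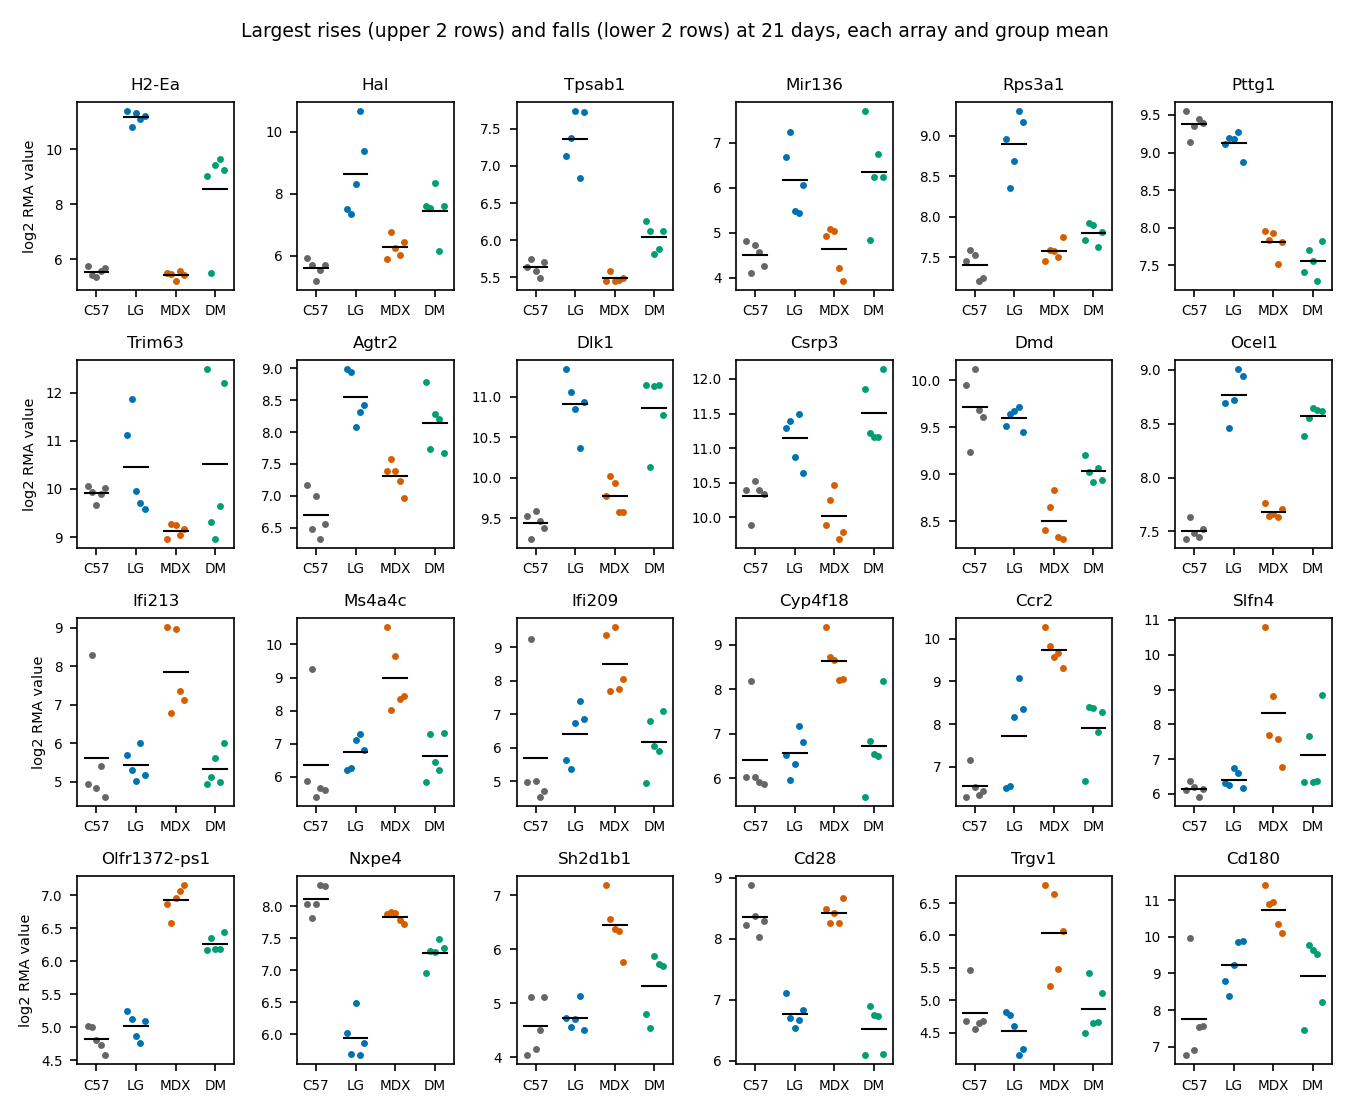
Log2 RMA value (vertical axes, each panel on its own scale) of the 12 genes with the largest rises and the 12 with the largest falls among those whose Largemyd and Dmdmdx arrays do not overlap, in C57Bl/6 (C57), Largemyd (LG), Dmdmdx (MDX) and the double mutant (DM) at 21 days. Points are the 5 arrays of a group and lines the group means. In H2-Ea, Tpsab1 and Ocel1 the Dmdmdx arrays sit near the C57Bl/6 level, in Dmd and Pttg1 the Largemyd arrays do.

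Interferon-induced genes, the antiviral genes switched on by type I interferon, were lower in Largemyd in 21 of 29 measured members and higher in none, with a median of -0.68. By comparison 5.06% of all genes were lower. Oas2, which makes the second messenger that activates RNase L, read 6.90, 6.75, 7.5, 7.51 and 7.36 in Largemyd and 8.99, 7.91, 8.83, 8.25 and 7.89 in Dmdmdx, without overlap (-1.17 ± 0.19, adjusted p = 1.9e-05). Irf7, the master transcription factor of the response, read 7.02, 7.14, 7.77, 7.87 and 7.54 against 10.47, 7.94, 9.28, 8.68 and 7.92 (-1.39 ± 0.32, adjusted p = 0.0036). Dmdmdx 1 and 3 were the highest arrays of both genes, and Dmdmdx 2 and 5 lay just above Largemyd.

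Oasl2 (-1.45 ± 0.29, adjusted p = 0.00077), the receptor chaperone Rtp4 (-1.35 ± 0.27, adjusted p = 0.00069) and Ifit1 (-1.27 ± 0.34, adjusted p = 0.013) completed the 5 largest falls of the list. Ifit1, which binds foreign RNA, overlapped between the groups (6.49 to 8.18 against 7.67 to 9.61), and its call ended without Largemyd 1 or 2 or Dmdmdx 1 or 3 (adjusted p = 0.067 to 0.085). Against C57Bl/6, 27 of the 29 genes were higher in Dmdmdx (all genes 11.7%) and 6 in Largemyd (all genes 9.89%), with medians of 0.84 and 0.18 (these 2 comparisons share the control arrays). The list averaged 7.30, 7.34, 7.93, 7.98 and 7.92 in the Largemyd arrays and 9.0, 7.86, 8.88, 8.28 and 8.0 in the Dmdmdx arrays. The 2 highest arrays, Dmdmdx 1 and 3, also had high lymph node markers, as did Dmdmdx 5. Without Dmdmdx 1 or Dmdmdx 3 alone 9 members were lower, without Largemyd 1 alone 10 and without Largemyd 2 alone 11. None of the 29 passed without the lymph node arrays (median -0.26), without Largemyd 1 and 2, 2 did (median -0.49), and with the lymph node marker mean as a covariate 18 did (median -0.53).

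The promoters of these genes are known to carry the interferon-stimulated response element, bound by the STAT and IRF factors. A match to its core, GAAA followed by any 2 bases and a second GAAA on either strand, was found in the 250 bases before and 50 after the start in 12 of 20 genes of the list with a RefSeq promoter (GRCm38.p6), against 605 of the 15563 tested genes with one (3.89%). Within the list a match was present in 9 of 15 members lower in Largemyd and in 3 of 5 that did not pass, the same share. Among all genes lower in Largemyd it was 8.15% (67 of 822) and among those higher 2.68% (16 of 597). The 822 include the 15 list members that were lower, 9 of them with a match, so this share is not separate from that of the list. A match is a description of the letters and not evidence of binding. The stretches with the matches are shown for the 3 genes with the deepest falls among list members whose matches all lie before the start. Ifit1 (chr19:34640755-34640843, plus strand) and Ifit3 (chr19:34583343-34583446, plus strand) were lower in Largemyd, and Rsad2 (chr12:26456533-26456602, minus strand) did not pass. The promoters of Oasl2 (-1.45) and Irf7 (-1.39), which fell further, held no match. Capitals mark the matches, all of which lie on the opposite strand and so read TTTC, 2 bases and TTTC.
Ifit1: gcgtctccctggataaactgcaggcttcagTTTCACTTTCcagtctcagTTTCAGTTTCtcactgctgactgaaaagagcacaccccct
Ifit3: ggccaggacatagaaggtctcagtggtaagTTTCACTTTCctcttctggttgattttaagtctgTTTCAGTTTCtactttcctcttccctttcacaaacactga
Rsad2: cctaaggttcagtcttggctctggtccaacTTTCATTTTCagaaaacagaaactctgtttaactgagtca
The pair of matches in Ifit1 starts 104 and 85 bases before the transcription start, and that in Ifit3 156 and 122 bases before it. Ifit3, like Ifit1 a binder of foreign RNA, differed by -1.17 and lost its call without Largemyd 1 or 2 or Dmdmdx 1 or 3 (adjusted p = 0.099 to 0.12). Rsad2, the antiviral enzyme viperin, differed by -0.93 (adjusted p = 0.12).

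Of 13 genes of antigen presentation 8 were lower in Largemyd and 1, H2-Ea, higher (median -0.52). The class II chain H2-Ab1 read 9.86, 9.17, 10.09, 9.81 and 9.55 in Largemyd and 11.05, 10.15, 11.08, 10.94 and 11.20 in Dmdmdx (-1.19 ± 0.34, adjusted p = 0.018). Another class II chain, H2-Eb1 (-0.90 ± 0.28, adjusted p = 0.031), the peptide editor H2-DMa (-0.92 ± 0.24, adjusted p = 0.0096) and the peptide transporter Tap1 (-0.80 ± 0.24, adjusted p = 0.027) were lower too. Without Largemyd 2 alone 1 member was lower, without Dmdmdx 1 alone 2, and without Largemyd 1 or Dmdmdx 3 alone 4. In all 8 genes that fell the arrays of the groups did not overlap, against 861 of all 1782 genes that passed. Probes for these genes read a locus that is highly variable between mouse strains, and a mismatch to a probe lowers its signal. The part of such mismatches was not tested. Calls ended without Largemyd 2 or Dmdmdx 1 for H2-Ab1 (adjusted p = 0.051 to 0.079), without Largemyd 2 for H2-DMa (0.056), without Largemyd 1 or 2 or Dmdmdx 1 or 3 for Tap1 (0.051 to 0.14), and without Largemyd 1, 2 or 5 or Dmdmdx 1, 3 or 5 for H2-Eb1 (0.050 to 0.085). Without the lymph node arrays H2-Ea alone passed (median -0.31), and without Largemyd 1 and 2, 1 member was lower (median -0.53).

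**Figure D3:**
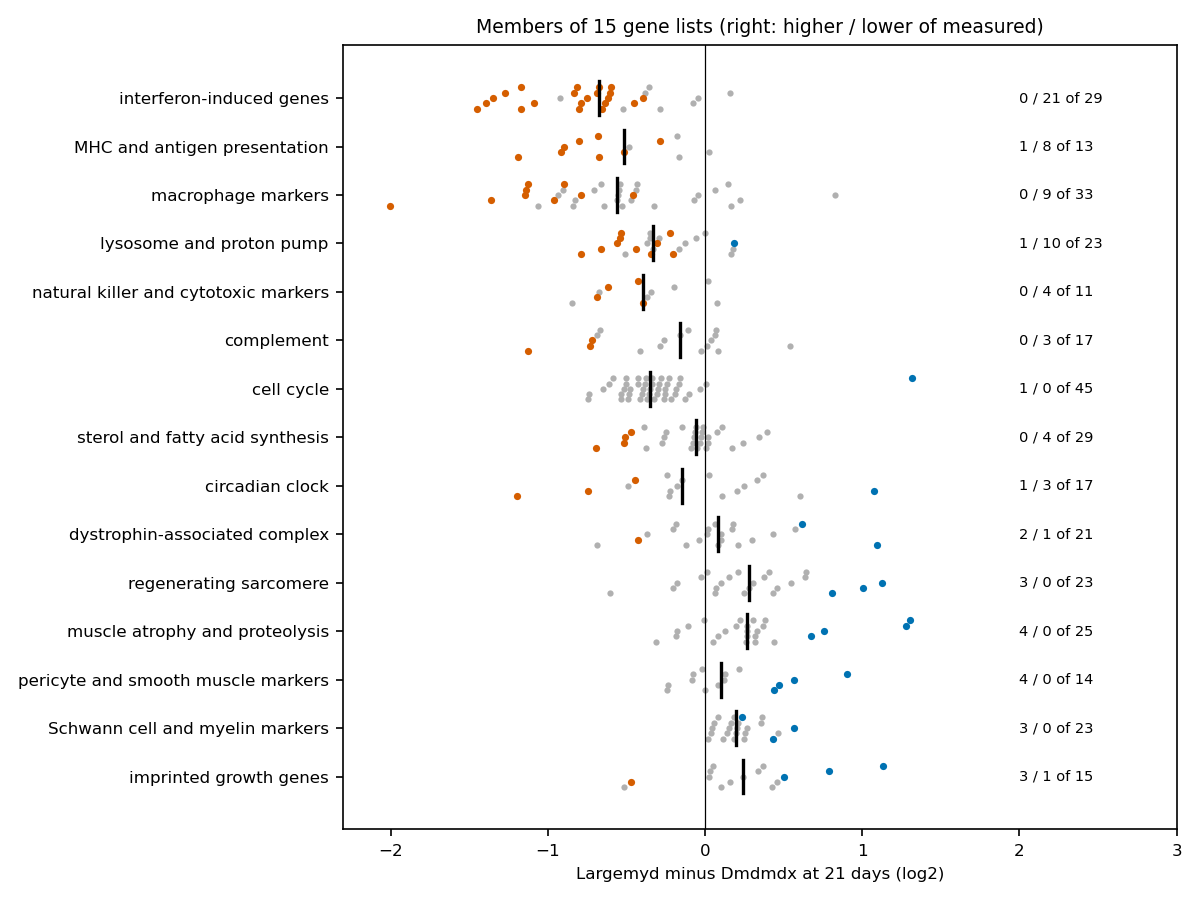
Difference between Largemyd and Dmdmdx at 21 days (horizontal axis, log2) for each measured member of 15 gene lists (rows). Blue points passed higher in Largemyd, orange points lower, grey points did not pass, black bars are the medians, and the counts on the right give members higher and lower of those measured. H2-Ea, at 5.74 in the antigen presentation list, is beyond the axis. Interferon-induced genes have 21 of 29 members below 0 past the threshold, while the cell cycle list lies left of 0 with no fall past it.

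Macrophage markers were lower in Largemyd in 9 of 33 members and higher in none (median -0.56). Both mutants were far above C57Bl/6 in this list, with 29 members higher in Largemyd (all genes 9.89%) and 31 in Dmdmdx (all genes 11.7%). The medians were 1.65 and 2.49 (shared controls). After Ccr2, the largest fall was in Lyz1, a lysozyme of macrophages, at 8.48, 8.93, 9.26, 9.63 and 8.86 in Largemyd and 10.59, 10.29, 10.33, 10.54 and 10.23 in Dmdmdx, without overlap (-1.36 ± 0.24, adjusted p = 9.8e-05). The high-affinity antibody receptor Fcgr1 (-1.15 ± 0.29, adjusted p = 0.0076), Adgre1, which encodes a macrophage surface receptor (-1.14 ± 0.25, adjusted p = 0.0023), and the anaphylatoxin receptor C3ar1 (-1.13 ± 0.26, adjusted p = 0.0038) followed. Their Largemyd arrays fell apart into a low pair, Largemyd 1 and 2, and a group closer to Dmdmdx. Adgre1 read 8.91, 8.47, 9.59, 10.27 and 10.54 in Largemyd and 11.13, 10.80, 10.61, 10.58 and 10.38 in Dmdmdx. Without Largemyd 1 and 2 it was -0.56 (adjusted p = 0.25), and Lyz1 was -1.14 (adjusted p = 0.0095). Fcgr1 failed without Largemyd 1 or 2 or Dmdmdx 1 (adjusted p = 0.052 to 0.073). The count of 9 became 5 without Largemyd 1, Largemyd 2 or Dmdmdx 1 alone and 14 without Largemyd 4. Of the 33, 2 passed without Largemyd 1 and 2 (median -0.28) and 1 without the lymph node arrays (median -0.51).

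Lysosome and proton pump genes, which macrophages use to digest debris, were lower in 10 of 23 and higher in 1 (median -0.33). Atp6v1b2, a subunit of the proton pump, read 10.20, 10.20, 10.33, 10.80 and 10.75 in Largemyd and 11.08, 11.27, 11.04, 10.88 and 10.71 in Dmdmdx, with an overlap between Largemyd 4 and 5 and Dmdmdx 5 (-0.54 ± 0.10, adjusted p = 0.00031). The acid lipase Lipa (-0.79 ± 0.20, adjusted p = 0.0092), the cholesterol exporter Npc1 (-0.66 ± 0.18, adjusted p = 0.013), progranulin, Grn (-0.56 ± 0.14, adjusted p = 0.0067), and the hexosaminidase Hexa (-0.53 ± 0.12, adjusted p = 0.0036) were also lower. Lipa failed without Largemyd 1 or 2 (adjusted p = 0.059 to 0.075). The count of 10 became 6 without Largemyd 1 alone and 4 without Largemyd 2 alone. Without the lymph node arrays 1 member was lower (median -0.33) and without Largemyd 1 and 2 none (median -0.19).

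Among 22 chemokines 2 were lower in Largemyd and none higher (median -0.31). Both attract monocytes. Ccl7, a ligand of Ccr2, read 7.37, 7.42, 9.25, 10.17 and 9.39 in Largemyd and 10.63, 10.77, 10.01, 10.24 and 8.57 in Dmdmdx (-1.32 ± 0.39, adjusted p = 0.022), so that Largemyd 1 and 2 stood below and the rest overlapped. Ccl9 was lower by 0.69 ± 0.21 on the log2 scale (adjusted p = 0.027). Calls ended without Largemyd 1 or 2 or Dmdmdx 1 or 2 for Ccl7 (adjusted p = 0.076 to 0.15) and without the same arrays or Dmdmdx 3 for Ccl9 (0.052 to 0.14). Of 17 complement genes 3 were lower (median -0.16), C3ar1 and the components C4b (-0.73 ± 0.24, adjusted p = 0.044) and Cfb (-0.72 ± 0.22, adjusted p = 0.027). C4b failed without Largemyd 1, 2 or 5 or Dmdmdx 1, 3 or 5 (adjusted p = 0.076 to 0.14) and Cfb without Largemyd 2 or 5 or Dmdmdx 1 (0.069 to 0.17). No member of either list passed without the lymph node arrays or without Largemyd 1 and 2. Ccl17, a chemokine outside the list that was picked after its values were seen, was higher in Largemyd (1.05 ± 0.25, adjusted p = 0.0041), and passed without the lymph node arrays (1.35, adjusted p = 0.045) and without Largemyd 1 and 2 (1.02, adjusted p = 0.039), though not with only the arrays of 21 days or only the 10 arrays compared.

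Natural killer and cytotoxic markers were lower in 4 of 11 and higher in none (median -0.39). Gzma, the protease granzyme A of killer cells, read 5.29, 4.93, 5.33, 4.87 and 4.83 in Largemyd and 6.48, 5.96, 5.19, 5.67 and 5.38 in Dmdmdx (-0.69 ± 0.15, adjusted p = 0.0025), with Dmdmdx 3 inside the Largemyd range. It was -0.82 without the lymph node arrays (adjusted p = 0.011) and -0.73 without Largemyd 1 and 2 (adjusted p = 0.013). The receptors Klrk1 (-0.62 ± 0.18, adjusted p = 0.019), Klrb1c (-0.43 ± 0.14, adjusted p = 0.040) and Klra8 (-0.39 ± 0.12, adjusted p = 0.028) were lower. Klrk1 failed without Largemyd 2 or Dmdmdx 1 (adjusted p = 0.092 to 0.10), Klrb1c without Largemyd 1, 2 or 3 or Dmdmdx 1 or 2 (0.070 to 0.24), and Klra8 without Largemyd 4 or 5 or Dmdmdx 1 or 2 (0.083 to 0.11). Of the 27 lymph node and lymphocyte markers 1, Cd28, passed, although all 27 had differences below 0 (median -0.51). No gene passed among 18 neutrophil and marrow markers (median -0.39), 9 osteoclast genes (-0.06) or 8 erythroid markers (-0.13).

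**Figure D4:**
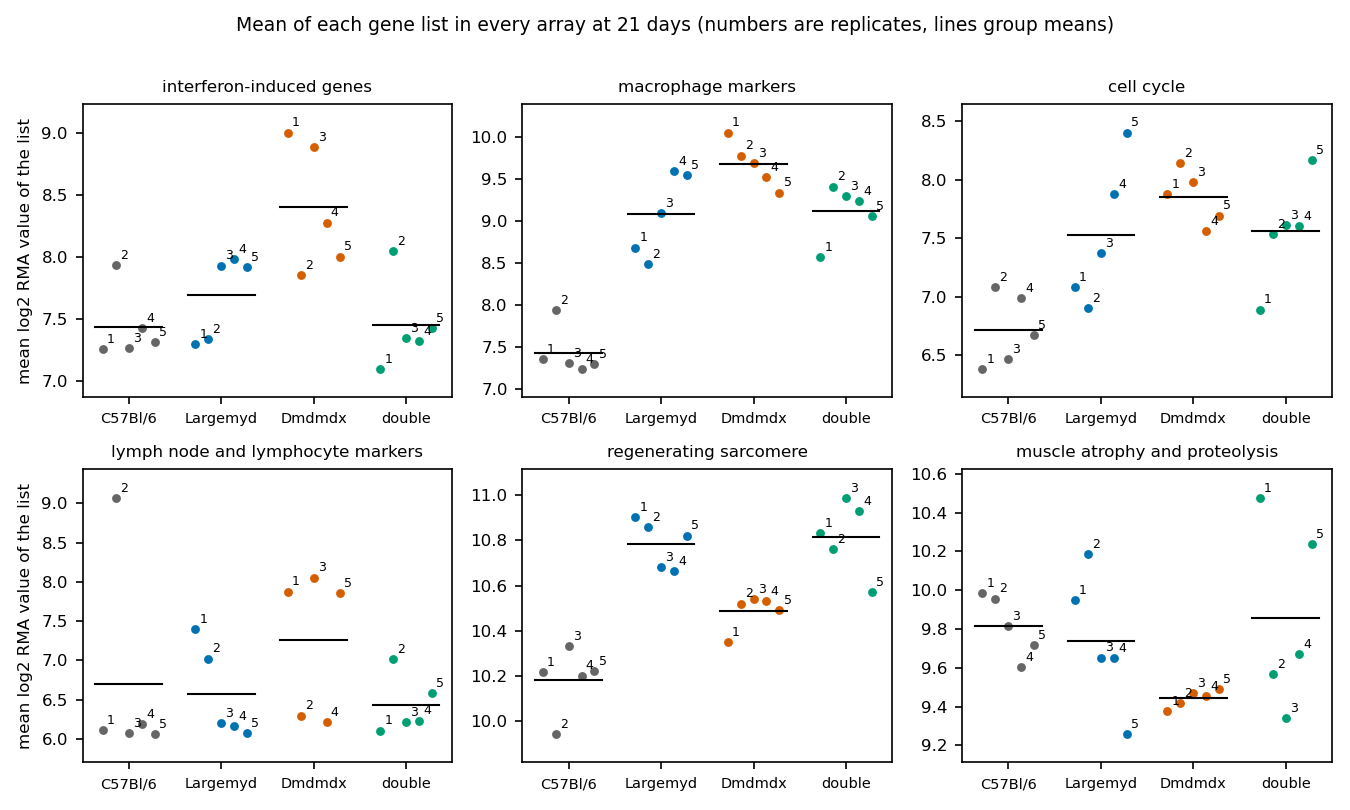
Mean log2 RMA value of the measured members of 6 gene lists (vertical axes, each panel on its own scale) in every array at 21 days, by lineage. Numbers are the arrays of a group and lines the group means. Dmdmdx 1 and 3 are the highest arrays in interferon-induced genes and have high lymph node markers together with Dmdmdx 5, Largemyd 1 and 2 lie below the other Largemyd and all Dmdmdx arrays in macrophage markers, and all Largemyd arrays lie above all Dmdmdx arrays in the regenerating sarcomere.

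Cell cycle genes were above normal muscle in both mutants. Of 45 measured, 42 were higher than C57Bl/6 in Dmdmdx and 22 in Largemyd (medians 1.26 and 0.80, all genes 11.7% and 9.89%, shared controls). Between the 2 mutants none was lower past the threshold although 43 of 45 differences lay below 0 (median -0.35). The list averaged 7.08, 6.90, 7.37, 7.88 and 8.40 in the Largemyd arrays and 7.87, 8.14, 7.98, 7.56 and 7.69 in Dmdmdx, so Largemyd held both the lowest and the highest array. Without Largemyd 1 and 2 the median was 0.01.

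The 1 gene of the list that passed went the other way. Pttg1, securin, which delays the separation of sister chromatids until anaphase, read 9.11, 9.19, 9.18, 9.27 and 8.87 in Largemyd and 7.95, 7.84, 7.94, 7.52 and 7.81 in Dmdmdx (1.31 ± 0.13, 2.49-fold, adjusted p = 4.3e-10). C57Bl/6 muscle, with few dividing cells, was as high as Largemyd at 9.38 ± 0.16 (SD, n = 5), and the double mutant was as low as Dmdmdx at 7.56 ± 0.21. Among 19 genes of p53 and growth arrest 1 was higher (median -0.01), the apoptosis gene Bbc3 (0.28 ± 0.09, adjusted p = 0.046), whose call ended without Largemyd 1, 2 or 3 or Dmdmdx 1, 2, 3 or 5 (adjusted p = 0.054 to 0.17). None of the 26 satellite cell and myogenic factors passed (median 0.08).

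Genes of the regenerating sarcomere were higher in Largemyd in 3 of 23 and lower in none (median 0.28, against 0.02 for all genes). The list mean was 10.66 to 10.90 in Largemyd, 10.35 to 10.54 in Dmdmdx and 10.18 ± 0.14 (SD, n = 5) in C57Bl/6. Csrp3, the muscle LIM protein of the Z-disc, read 11.30, 11.40, 10.87, 11.50 and 10.64 in Largemyd and 9.89, 10.24, 10.46, 9.68 and 9.79 in Dmdmdx, without overlap (1.13 ± 0.32, adjusted p = 0.017). Xirp1, an actin-binding protein of damaged and growing fibres, was higher by 1.01 ± 0.26 (adjusted p = 0.0088), and Myh8, the perinatal myosin heavy chain, by 0.81 ± 0.25 (adjusted p = 0.029). Calls ended without Largemyd 2 for Csrp3 (adjusted p = 0.059), without Largemyd 1 or 2 for Xirp1 (0.052 to 0.066), and without Largemyd 1, 2 or 5 or Dmdmdx 1, 2 or 3 for Myh8 (0.055 to 0.099). None of the 3 passed without the lymph node arrays or without Largemyd 1 and 2, where the list medians were 0.25 and 0.25.

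Genes of muscle atrophy and proteolysis were higher in 4 of 25 and lower in none (median 0.27). Trim63, the ubiquitin ligase MuRF1, read 11.11, 11.87, 9.96, 9.70 and 9.58 in Largemyd and 8.96, 9.26, 9.26, 9.04 and 9.17 in Dmdmdx (1.31 ± 0.38, adjusted p = 0.022). Largemyd 1 and 2 were far above the rest, and without either, or without Dmdmdx 1, the gene did not pass (adjusted p = 0.059 to 0.16). Fbxo32, the ligase atrogin-1, followed the same mice at 10.42, 11.11, 9.16, 9.84 and 8.27 against 8.37 to 8.57 (1.28 ± 0.42, adjusted p = 0.046), and failed without any 1 of 8 arrays (all but Largemyd 3 and 5, adjusted p = 0.064 to 0.23). Map1lc3a, the autophagy protein LC3, was higher by 0.76 ± 0.17 (adjusted p = 0.0028) at 9.45 to 9.94 against 8.87 to 9.38, and by 0.69 without Largemyd 1 and 2 (adjusted p = 0.048). Klf15, a glucocorticoid-induced transcription factor, was higher by 0.67 ± 0.22 (adjusted p = 0.043), a call lost without Largemyd 1 or 2 or Dmdmdx 1, 2, 3 or 5 (adjusted p = 0.054 to 0.27). Without the lymph node arrays no member passed (median 0.24), and without Largemyd 1 and 2 only Map1lc3a did (median 0.07). Compared with C57Bl/6 the list was at -0.46 in Dmdmdx and -0.05 in Largemyd (medians, shared controls).

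Of 16 slow fibre genes 1 was higher (median 0.29), Sln, the calcium pump inhibitor sarcolipin (0.63 ± 0.19, adjusted p = 0.026), lost without Largemyd 1, 2 or 4 or Dmdmdx 1 or 5 (adjusted p = 0.053 to 0.085). No fast fibre gene of 21 passed (median -0.01). Among 27 genes of excitation-contraction coupling and calcium 1 was higher and 3 lower (median -0.09). Dhrs7c, a reductase of the sarcoplasmic reticulum, read 10.58, 9.28, 9.63, 9.5 and 9.06 in Largemyd and 10.69, 10.82, 11.10, 10.75 and 10.94 in Dmdmdx, without overlap (-1.25 ± 0.22, adjusted p = 0.00015). The 2 partners of store-operated calcium entry differed in opposite directions, the channel Orai1 lower at 7.39 to 7.67 against 7.91 to 8.04 (-0.39 ± 0.08, adjusted p = 0.0010) and its sensor Stim1 higher (0.30 ± 0.09, adjusted p = 0.036). The plasma membrane calcium pump Atp2b1 was lower (-0.29 ± 0.08, adjusted p = 0.013). Stim1 failed without any single Largemyd array but Largemyd 5 and without Dmdmdx 1 or 5 (adjusted p = 0.054 to 0.13), and Atp2b1 without Largemyd 1 or 2 or Dmdmdx 1 or 2 (0.064 to 0.078).

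Ion channels and transporters of muscle changed in both directions, 3 of 21 higher and 2 lower (median -0.10). The potassium channel Kcna1 read 8.18, 8.58, 7.78, 7.80 and 7.63 in Largemyd and 7.29, 6.93, 7.39, 7.05 and 7.26 in Dmdmdx (0.81 ± 0.14, adjusted p = 8.2e-05). Slc15a2, a peptide transporter, was higher by 1.58 ± 0.41 (adjusted p = 0.0094) with an overlap of the groups (6.95 to 8.39 against 4.45 to 7.36), and Slc16a1, the lactate transporter MCT1, by 0.43 ± 0.10 (adjusted p = 0.0042). The sodium-calcium exchanger Slc8a3 (-0.56 ± 0.17, adjusted p = 0.028) and the taurine transporter Slc6a6 (-0.31 ± 0.08, adjusted p = 0.010) were lower. Slc15a2 failed without Largemyd 2 or Dmdmdx 3 (adjusted p = 0.051 to 0.072) and Slc8a3 without Largemyd 1, 2 or 5 or Dmdmdx 3 or 4 (0.054 to 0.11).

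Of 21 genes of the neuromuscular junction and denervation, Dlk1 was higher and Ache, acetylcholinesterase, lower (-0.47 ± 0.14, adjusted p = 0.022, median 0.09), the latter lost without Largemyd 1 or 2 or Dmdmdx 2 or 3 (adjusted p = 0.050 to 0.068). Stress, heat shock and unfolded protein genes had 2 of 26 higher and 2 lower (median 0.00). The small heat shock protein Hspb1 was at 11.93 to 12.48 in Largemyd and 11.03 to 11.44 in Dmdmdx (0.87 ± 0.21, adjusted p = 0.0058), and the stress factor Nupr1 was higher by 0.36 ± 0.10 (adjusted p = 0.017). The endoplasmic reticulum isomerases Pdia6 (-0.59 ± 0.14, adjusted p = 0.0035) and Pdia4 (-0.45 ± 0.14, adjusted p = 0.032) were lower. Nupr1 failed without Largemyd 1, 2 or 3 or Dmdmdx 2 or 3 (adjusted p = 0.052 to 0.067) and Pdia4 without Largemyd 1 or 2 or Dmdmdx 1, 2 or 3 (0.058 to 0.19).

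Among 31 genes of oxidative stress and iron 2 were higher and 2 lower (median 0.05). Gsta4, which clears products of lipid peroxidation, was at 8.05 to 8.52 against 7.37 to 7.96 (0.65 ± 0.14, adjusted p = 0.0011), and the metallothionein Mt1 was higher by 0.85 ± 0.26 (adjusted p = 0.031). The iron store Fth1 (-0.19 ± 0.05, adjusted p = 0.0052) and the transferrin receptor Tfrc (-0.73 ± 0.24, adjusted p = 0.042) were lower. Mt1 failed without Largemyd 1 or 2 or Dmdmdx 1, 3, 4 or 5 (adjusted p = 0.059 to 0.15) and Tfrc without Largemyd 1, 2 or 4 or Dmdmdx 1, 3 or 5 (0.055 to 0.19).

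Energy metabolism differed little. Of 70 oxidative phosphorylation genes 3 were higher and none lower (median 0.09), the complex I subunit Ndufv3 (0.37 ± 0.12, adjusted p = 0.046), the ATP synthase subunit Atp5j2 (0.36 ± 0.11, adjusted p = 0.025) and the cytochrome c oxidase subunit Cox5b (0.33 ± 0.09, adjusted p = 0.019). Their calls ended without Largemyd 1, 2 or 3 or Dmdmdx 1, 2, 3 or 5 for Ndufv3 (adjusted p = 0.074 to 0.16), without Largemyd 1 or 2 or Dmdmdx 1, 2 or 3 for Atp5j2 (0.062 to 0.096), and without Largemyd 2 or Dmdmdx 1 for Cox5b (0.054 to 0.065). Of the 70, 56 were lower than C57Bl/6 in Dmdmdx and 28 in Largemyd (all genes 13.5% and 13.1%, shared controls). Of 27 genes of the citrate cycle and amino acids 1 was higher (median 0.15), Bckdhb, of branched-chain amino acid breakdown (0.57 ± 0.18, adjusted p = 0.038), lost without Largemyd 1, 2 or 3 or Dmdmdx 1, 2 or 3 (adjusted p = 0.070 to 0.13). None passed of 30 genes of fatty acid oxidation (median 0.15) or of 28 genes of glycolysis and glycogen (0.01). Of 29 genes of sterol and fatty acid synthesis 4 were lower (median -0.05), Idi1 (-0.69 ± 0.20, adjusted p = 0.022), Msmo1 (-0.52 ± 0.15, adjusted p = 0.024) and Sqle (-0.47 ± 0.16, adjusted p = 0.046), which are enzymes of cholesterol synthesis, and the lipid carrier Apoe (-0.51 ± 0.16, adjusted p = 0.028). Idi1 and Msmo1 failed without Largemyd 1 or 2 or Dmdmdx 1 (adjusted p = 0.095 to 0.18), Sqle also without Dmdmdx 2, 4 or 5 (0.050 to 0.25) and with array medians subtracted, and Apoe without Largemyd 1, 2 or 5 or Dmdmdx 1, 3 or 5 (0.052 to 0.11).

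Of 17 circadian clock genes 1 was higher and 3 lower (median -0.15). Arntl, whose protein BMAL1 drives the clock, read 8.91, 9.18, 7.98, 7.72 and 7.49 in Largemyd and 7.32, 7.02, 7.79, 6.74 and 7.05 in Dmdmdx (1.07 ± 0.31, adjusted p = 0.020). Dbp, an output gene that peaks when Arntl is low, read 8.18, 7.87, 9.67, 9.27 and 9.12 against 9.58, 9.92, 9.33, 10.82 and 10.46 (-1.20 ± 0.30, adjusted p = 0.0076). Largemyd 1 and 2 had the highest Arntl and the lowest Dbp of the 10 arrays. Per3 (-0.74 ± 0.20, adjusted p = 0.013) and Nr1d2 (-0.45 ± 0.13, adjusted p = 0.017) were lower. The labels give no time of day for the dissections, and its part was not tested. None of the 4 passed without Largemyd 1 and 2. Arntl also failed without Largemyd 1 or 2 or Dmdmdx 4 singly (adjusted p = 0.052 to 0.12), Dbp without Largemyd 2 (0.062), Per3 without Largemyd 1 or 2 (0.073 to 0.076) and Nr1d2 without Largemyd 1 or 2 or Dmdmdx 4 or 5 (0.051 to 0.084).

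Pericyte and smooth muscle markers were higher in 4 of 14, all contractile genes, and lower in none (median 0.10). Without regard to the test, 8 of the 14 differences lay above 0 and 6 below. With the lymph node marker mean as a covariate 4 were higher and 1 lower. Cnn1, calponin, read 7.83, 7.96, 8.11, 8.70 and 7.63 in Largemyd and 7.20, 6.66, 7.08, 7.65 and 7.14 in Dmdmdx (0.90 ± 0.16, adjusted p = 0.00019), so that Dmdmdx 4 lay just above Largemyd 5. Tagln, transgelin, was at 8.62 to 9.23 against 8.0 to 8.41 (0.57 ± 0.12, adjusted p = 0.0019), and both also passed without the lymph node arrays (0.95 and 0.67). Myh11, the smooth muscle myosin (0.47 ± 0.12, adjusted p = 0.0097), and Lmod1 (0.44 ± 0.11, adjusted p = 0.0058) were higher. Against C57Bl/6 the list was lower in 6 genes in Largemyd and in 9 in Dmdmdx (all genes 13.1% and 13.5%, shared controls). Of 21 endothelial markers 1 was lower (median -0.02), Vwf (-0.34 ± 0.11, adjusted p = 0.032), lost without Largemyd 1, 2 or 5 or Dmdmdx 1, 3 or 5 (adjusted p = 0.054 to 0.11).

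Schwann cell and myelin markers were higher in 3 of 23 and lower in none, and all 23 differences were above 0 (median 0.19). The 3 were gliomedin, Gldn, which gathers sodium channels at nodes of Ranvier (0.57 ± 0.12, adjusted p = 0.0015), Ncmap, a membrane protein of compact myelin (0.43 ± 0.12, adjusted p = 0.015), and the adhesion molecule L1cam (0.23 ± 0.07, adjusted p = 0.020). Gldn was at 7.41 to 7.80 in Largemyd and 6.81 to 7.25 in Dmdmdx. Ncmap failed without Largemyd 2 or Dmdmdx 2 (adjusted p = 0.063 to 0.11) and L1cam without Largemyd 1 or 2 or Dmdmdx 1 (0.052 to 0.079). Against C57Bl/6, 14 of the 23 were lower in Dmdmdx and 6 in Largemyd (all genes 13.5% and 13.1%, shared controls). No member passed without the lymph node arrays (median 0.26).

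Matrix genes were raised in both mutants against C57Bl/6 (20 of 37 fibrillar matrix genes in Largemyd and 17 in Dmdmdx, all genes 9.89% and 11.7%, shared controls). Between the mutants 1 gene of the list differed (median 0.08). Mfap5, of elastic microfibrils, was tightly grouped at 11.75 to 11.78 in Largemyd and 11.24 to 11.32 in Dmdmdx (0.49 ± 0.15, adjusted p = 0.034). Of 20 markers of fibro-adipogenic progenitors, the cells that lay down matrix in muscle, 3 were higher (median 0.06), Mfap5, the growth factor receptor Pdgfra (0.35 ± 0.11, adjusted p = 0.028) and Adamtsl2 (0.26 ± 0.09, adjusted p = 0.050). These calls were thin in their adjusted p. That of Mfap5 ended without Largemyd 1 or 2 or any Dmdmdx array (adjusted p = 0.050 to 0.077). That of Pdgfra ended without Largemyd 1, 2 or 4 or Dmdmdx 3 (0.068 to 0.12). That of Adamtsl2 ended without Largemyd 1 or 2 or Dmdmdx 1, 2, 4 or 5 (0.063 to 0.25). The difference of Mfap5 itself stayed at 0.48 to 0.50 whichever single array was left out. Its standard error rests on the spread pooled over all groups, not on the tight values of these arrays.

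Of 36 TGF-beta and BMP genes 2 were higher and 1 lower (median 0.02), the ligand Bmp6 (0.30 ± 0.09, adjusted p = 0.028), the activin antagonist Fstl3 (0.27 ± 0.09, adjusted p = 0.039) and the TGF-beta target Tgfbi (-0.36 ± 0.11, adjusted p = 0.022). Bmp6 failed without Largemyd 1, 2 or 3 or Dmdmdx 2 or 3 (adjusted p = 0.060 to 0.13), Fstl3 without Largemyd 1 or 2 or Dmdmdx 1, 3, 4 or 5 (0.056 to 0.19), and Tgfbi without Largemyd 1 or 2 or Dmdmdx 1 (0.078 to 0.13). Of 28 proteases and inhibitors 1 was higher and 1 lower (median -0.01). Mmp12, macrophage elastase, was higher in Largemyd, against the direction of the macrophage markers, at 7.90, 8.0, 8.81, 9.81 and 9.67 against 7.31, 8.71, 8.08, 7.80 and 7.05 (1.05 ± 0.35, adjusted p = 0.049). Without Largemyd 1 and 2 it was 1.64 (adjusted p = 0.0074), and without Largemyd 3, 4 or 5 or Dmdmdx 1, 3, 4 or 5 it did not pass (adjusted p = 0.062 to 0.15). The lysosomal protease Ctsb was lower (-0.40 ± 0.11, adjusted p = 0.017), lost without Largemyd 1 or 2 or Dmdmdx 1 or 2 (adjusted p = 0.052 to 0.11).

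Among 30 growth factors and genes of the IGF axis 2 were higher and 1 lower (median 0.04), the IGF-binding proteins Igfbp3 (0.85 ± 0.27, adjusted p = 0.035) and Igfbp6 (0.65 ± 0.18, adjusted p = 0.013) and the cytokine Il15 (-0.53 ± 0.16, adjusted p = 0.030). Igfbp3 failed without Largemyd 1 or 2 or any Dmdmdx array (adjusted p = 0.051 to 0.18), Igfbp6 without Largemyd 2 or Dmdmdx 3 (0.056 to 0.057), and Il15 without Largemyd 1 or 2 or Dmdmdx 1, 3, 4 or 5 (0.053 to 0.16). Of 15 skin markers 1 was higher, the epidermal 14-3-3 protein Sfn (0.64 ± 0.16, adjusted p = 0.0086), and all 15 differences were above 0 (median 0.39). None passed of 14 adipocyte markers (median 0.03), 16 bone and cartilage markers (0.04), 11 tendon markers (0.29) or the 4 sex-linked genes.

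Imprinted growth genes were higher in 3 of 15 and lower in 1 (median 0.24). The 3 that were higher, Dlk1, Meg3 and Rtl1, are neighbours on chromosome 12 in the imprinted interval that ends at Dio3. Dlk1, a membrane protein of the Notch family that fetal and regenerating muscle expresses, comes from the paternal chromosome and Meg3, a long noncoding RNA, from the maternal one. Dlk1 read 11.34, 11.06, 10.85, 10.36 and 10.93 in Largemyd and 9.77, 10.02, 9.94, 9.58 and 9.57 in Dmdmdx (1.13 ± 0.18, 2.19-fold, adjusted p = 1.6e-05). Meg3 read 11.50, 11.76, 11.06, 11.08 and 11.18 against 10.61, 10.64, 10.72, 10.43 and 10.23 (0.79 ± 0.20, adjusted p = 0.0071), and neither gene overlapped. Rtl1, a retrotransposon-derived gene, was higher by 0.50 ± 0.12 (adjusted p = 0.0041). The gene that was lower, Ndn, lies in another imprinted region (-0.47 ± 0.16, adjusted p = 0.048), and failed with array medians subtracted and without Largemyd 1, 2 or 4 or any Dmdmdx array (adjusted p = 0.050 to 0.22).

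The interval from Dlk1 to Dio3 was looked at as a whole after these values were seen. It holds a large cluster of microRNA genes transcribed from the maternal chromosome with Meg3 and Rian. Of its 47 measured genes 20 were higher in Largemyd (42.6%, against 3.88% of all genes) and none lower, 45 had differences above 0, and the median was 0.36. Of its 40 microRNA genes 17 were higher (42.5%), against 11 of the 260 measured microRNA genes elsewhere (4.23%). No microRNA gene anywhere in the genome passed lower. The probe sets lie on the microRNA genes and cannot tell the precursor or its host transcript from the mature microRNA.

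The mature microRNAs of the 5 genes with the largest differences are shown for the reader to see what the interval encodes, from RefSeq (GRCm38.p6, plus strand of chromosome 12), written 5′ to 3′ with the seed, bases 2 to 8, in capitals. Among the 33 mature sequences of the 17 genes no 2 share a seed.
mmu-miR-136-5p: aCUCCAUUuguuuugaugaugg
mmu-miR-136-3p: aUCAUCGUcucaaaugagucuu
mmu-miR-434-5p: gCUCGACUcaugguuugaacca
mmu-miR-434-3p: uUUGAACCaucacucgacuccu
mmu-miR-134-5p: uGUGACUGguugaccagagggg
mmu-miR-134-3p: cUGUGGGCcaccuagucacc
mmu-miR-380-5p: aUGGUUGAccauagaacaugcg
mmu-miR-380-3p: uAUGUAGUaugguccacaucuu
mmu-miR-382-5p: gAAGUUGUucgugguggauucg
mmu-miR-382-3p: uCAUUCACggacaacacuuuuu
The miR-136 pair lies at chr12:109595331-109595387, with miR-434 before it and miR-380, miR-382 and miR-134 after it on the same strand.

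Mir136 read 6.69, 7.25, 5.48, 5.43 and 6.05 in Largemyd and 4.92, 5.08, 5.05, 4.22 and 3.92 in Dmdmdx, without overlap (1.54 ± 0.27, 2.92-fold, adjusted p = 7.8e-05). Largemyd 1 and 2 were highest, and without both it was 1.02 (adjusted p = 0.025). Mir434 read 5.18, 5.10, 4.65, 4.87 and 4.78 against 3.87, 4.10, 4.01, 3.57 and 3.75 (1.05). Mir134 read 9.70, 9.54, 9.20, 8.87 and 9.24 against 8.40, 8.59, 8.44, 8.18 and 7.97 (0.99), so that these 2 did not overlap either. In the interval as a whole 17 genes passed without Largemyd 1 and 2 (median 0.35) and 7 without the lymph node arrays (median 0.26).

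Against C57Bl/6, 26 of the 47 genes were higher in Largemyd (all genes 9.89%), 3 in Dmdmdx (all genes 11.7%) and 42 in the double mutant (all genes 15.4%), with medians of 0.41, 0.07 and 0.64 (all 3 share the controls). Mir136 averaged 4.50 ± 0.31 (SD, n = 5) in C57Bl/6 and 6.35 ± 1.04 in the double mutant, beside 6.18 ± 0.79 in Largemyd and 4.64 ± 0.53 in Dmdmdx. At 3 months 1 gene of the interval, Dlk1, was still higher in Largemyd than in Dmdmdx (0.81, adjusted p = 0.0041), against 3.21% of all genes, and at 6 months none, against 6.06%. Of the 40 microRNA genes the difference was smaller at 6 months than at 21 days, by the test of the change itself, in 11 (all genes 4.98%), and at 3 months in 2, Mir434 and Mir134 (all genes 0.0351%). Without 8 later arrays described below, none of the 20 genes of the interval that passed at 21 days passed at 3 or 6 months. The change to 6 months passed in 2 of these 20, Mir434 (-0.99, adjusted p = 0.047) and Meg3 (-1.37, adjusted p = 0.020). The change of Meg3, which is not among the microRNA genes, had not passed with all arrays.

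**Figure D5:**
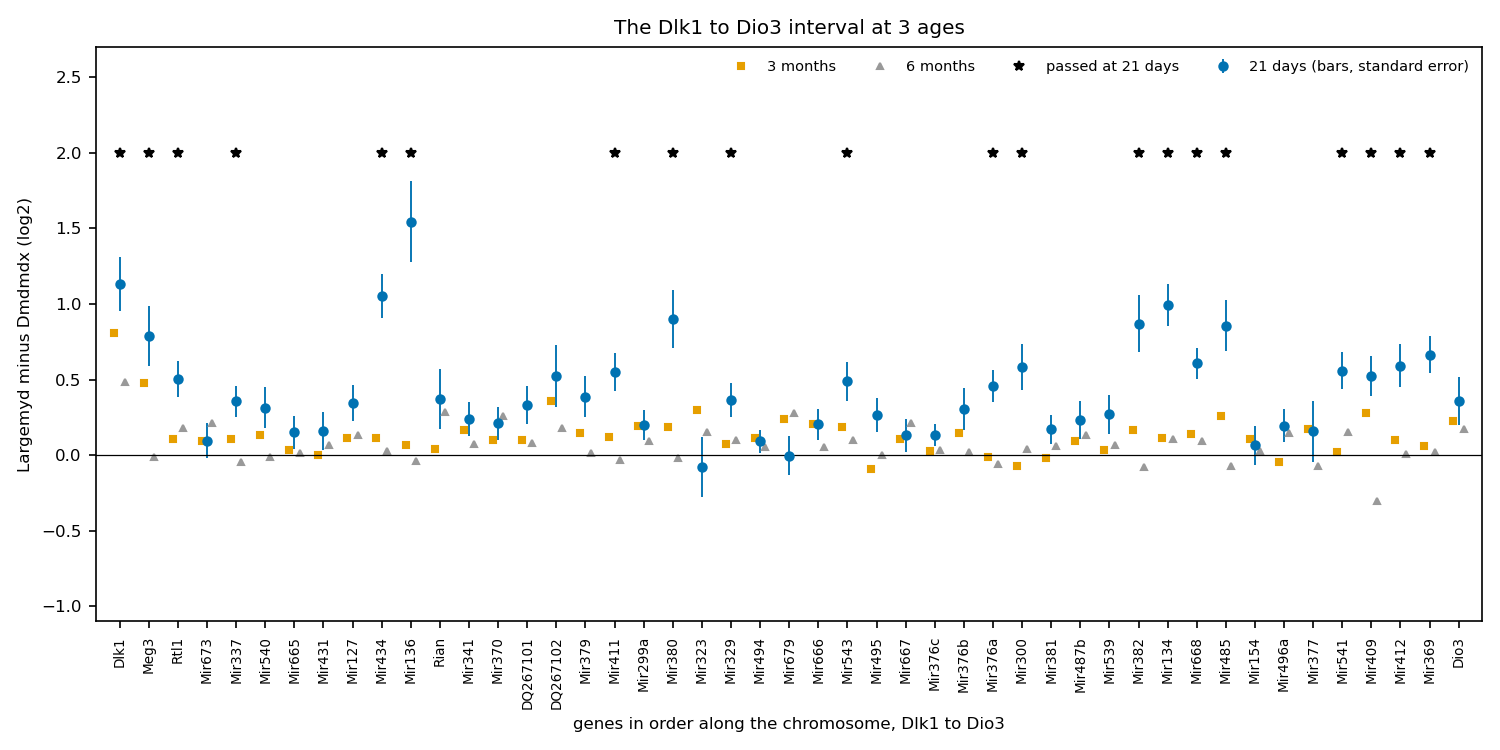
Difference between Largemyd and Dmdmdx (vertical axis, log2) for the 47 measured genes of the interval from Dlk1 to Dio3, in their order along the chromosome (horizontal axis), at 21 days (circles with bars of 1 standard error), 3 months (squares) and 6 months (triangles). Stars mark the 20 genes that passed at 21 days. The circles reach 1.54 at Mir136 and 45 of them lie above 0, while at Mir136 the square and the triangle lie at 0.06 and -0.04.

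Of 12 genes known to vary between inbred strains 3 were higher in Largemyd and none lower (median 0.11). Beside H2-Ea these were Glo1, glyoxalase 1, whose gene some strains carry in extra copies, at 10.64, 10.53, 11.07, 10.72 and 10.77 against 9.5, 9.71, 9.82, 9.84 and 9.93 (0.99 ± 0.11, adjusted p = 1.3e-08), and Ifi202b, a PYHIN gene that C57Bl/6 mice hardly express, at 4.94, 5.57, 6.04, 3.75 and 6.21 against 3.33 to 3.81 (1.77 ± 0.43, adjusted p = 0.0050). Largemyd 4 had Ifi202b inside the Dmdmdx range. Ifi202b thus moved against its relatives Ifi213 and Ifi209, and against the list of interferon-induced genes. It was 1.96 without the lymph node arrays (adjusted p = 0.14).

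Genes that passed also lay together along the chromosomes. In windows of 41 neighbouring tested genes the median number that passed was 3, over 19045 windows. The windows were picked after the counts were seen, so they are a description. The microRNA cluster around Mir376b and the histocompatibility region around Psmb8 on chromosome 17 had 16 each, and windows around Acy1 on chromosome 9 and around Ocel1 on chromosome 8 had 15 each. In the histocompatibility window 4 were higher and 12 lower, among the latter H2-K2 (-1.32), AA388235 (-1.66) and H2-Ob (-2.01), whose call ended without any single Largemyd array and without Dmdmdx 1, 3 or 5 (adjusted p = 0.052 to 0.14). In the window of Ocel1 the directions were mixed, with Jund (0.64) and Ccdc124 (0.45) higher and B3gnt3 (-1.11) and Lsm4 (-0.47) lower. The arrays of 11 of these 15 genes did not overlap, against 861 of all 1782 genes that passed. A window around Uqcrb on chromosome 13 held 13, 2 higher and 11 lower, most of the latter zinc finger genes, with Rsl1 at -1.05 and Zfp708 at -0.81. Whether these blocks follow the mutations or the strain background cannot be told apart.

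The comparison was set beside the same one at 3 and 6 months to see which differences lasted. Of the 845 genes that passed at 3 months (4.24%, with 3.21% higher and 1.03% lower) and the 2843 at 6 months (14.3%, with 6.06% higher and 8.2% lower), 261 and 274 had also passed at 21 days in the same direction, and 77 passed at all 3 ages. In these later groups 6 arrays labelled male had Xist above 8, 3 of Largemyd at 6 months, 2 of Dmdmdx at 3 months and 1 of Dmdmdx at 6 months. Marrow markers averaged over 8.5 in 2 Dmdmdx arrays at 3 months, 1 of them with high Xist, and in 1 at 6 months. Without these 8 arrays 60 genes passed at 3 months and 389 at 6 months, and 44 and 61 of the genes of 21 days were among them in the same direction.

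With and without the 8 arrays, 16 genes passed at all 3 ages in 1 direction. Over all arrays Pttg1 differed by 1.31 at 21 days, 1.23 at 3 months and 1.51 at 6 months, and Ocel1 by 1.08, 1.09 and 1.02. Fblim1, a filamin-binding adaptor of cell adhesions, was higher by 0.81, 0.85 and 0.62. Nxpe4 (-1.90, -1.45 and -0.78), Lrmda (-1.44, -1.41 and -1.12), B3gnt3 (-1.11, -0.73 and -0.80) and Ada, adenosine deaminase (-0.95, -0.61 and -0.40), were lower at each age. H2-Ea was not among the 16. It differed by 5.91 and 4.76 at the later ages over all arrays, and without the 8 arrays by 5.85 at 3 months (adjusted p = 0.0115) and by 2.98 at 6 months, where it did not pass (adjusted p = 0.247).

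The difference itself changed from 21 days to 3 months in 41 genes (0.206%) and to 6 months in 2043 (10.2%, with 5.27% moving up and 4.98% down), or in 6 and 345 without the 8 arrays. Cd28 lost its difference, from -1.65 at 21 days to -0.02 at 3 months (change 1.63, adjusted p = 4.4e-06) and 0.39 at 6 months (change 2.03, adjusted p = 4.5e-09). Tpsab1 shrank from 1.87 to 0.54 and 0.66 (changes of -1.33 and -1.21, adjusted p = 0.0012 and 0.00044), and Agtr2 from 1.24 to 0.05 and 0.06 (adjusted p = 0.014 and 0.0015). The changes of Cd28 and Tpsab1 passed at both ages without the 8 arrays. For Agtr2 the change to 6 months did (adjusted p = 0.046) and that to 3 months did not (adjusted p = 0.16).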

How the data were processed

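RNA from calf muscle of 60 mice, 5 of each of 4 lineages at 3 ages, was hybridised to Affymetrix Mouse Gene 1.0 ST arrays, 1 array a mouse, per the labels. The authors deposited log2 values made by RMA in Affymetrix Expression Console, per the submitters' processing notes. RMA corrects background, sets all arrays to 1 distribution and summarises probes, so a change shared by most genes is removed and small probe signals are compressed. No version was given in the sources used here, and no counts exist for arrays, so precision rests on 5 arrays a group.

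Of 35556 probe sets 21789 carried 1 gene symbol, 1621 several and 12146 none. Symbols were updated through Entrez identifiers for 21698. For the 998 genes with several such probe sets the one with the highest mean was taken, which left 19938 genes. No 2 arrays were identical. Differences were fitted with limma 3.58.1 in R 4.3.3 (lmFit on 12 group means, 48 residual degrees of freedom, then eBayes), and p-values were adjusted by Benjamini-Hochberg over all genes, with a threshold of 0.05. On simulated data of 19938 genes for this comparison, 76.1% of changes of 0.5, 96.7% of 1 and 99.7% of 2 on the log2 scale were recovered, with 4.7% false calls. The simulated noise was independent between genes and arrays, without effects shared by the genes of an array. These rates therefore do not hold for data with arrays that stand apart, such as Largemyd 1 and 2 or the lymph node arrays. Lists, sequences and plots were handled in Python 3.11.15 (pandas 2.3.3, matplotlib 3.10.9).

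The genes named were the 12 highest and 12 lowest differences where a gene passed and its arrays did not overlap, without predicted genes, then Dmd, Utrn and Dag1, and up to 5 members with the largest changes among those that passed in each of 50 gene lists (1077 of 1194 listed genes measured). The comparison and the lists were chosen with earlier results of these data known. The Dlk1 to Dio3 interval, the chromosomal windows, the genes at all ages and the genes named from them were added after their values were seen. Alternatives were other sets of arrays in the fit, array medians subtracted, array weights, another variance prior, a filter on low values (at least 6 in at least 5 arrays), the mean of probe sets, lymph node arrays left out or their marker mean as a covariate, and each array left out in turn. Leaving out Largemyd 1 and 2, or the later arrays with Xist above 8 or marrow markers above 8.5, was chosen after seeing the data. The gene mutated in Largemyd is not reported here.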

Additional observations from a re-analysis of the deposited data

Results flagged for a closer look

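Single arrays were set apart from the other 4 of their group by Dixon's ratio of gap to range (above 0.71). This held in 9 of the 244 groups examined for named genes and in 11 of the 98 examined for list means, and chance alone marks about 1 group in 20. The ratio is relative to the range of the group, so the gap itself can be small, as in Tpsab1 (5.59 against 5.45 to 5.49). For named genes these were Tpsab1 at 5.59 in Dmdmdx 2, Dag1 at 10.80 and Tagln at 9.23 in Largemyd 4, Cox5b at 12.50 in Largemyd 4, Ache at 9.10 in Largemyd 3, Klrk1 at 5.92 in Dmdmdx 1, H2-Ab1 at 10.15 and Igfbp3 at 9.48 in Dmdmdx 2, and Map1lc3a at 9.38 in Dmdmdx 4. Of the list means, 6 were those of Dmdmdx 1, the dystrophin-associated complex at 9.0, osteoclast genes at 7.5, natural killer markers at 6.13, complement at 9.48, the regenerating sarcomere at 10.35 and excitation-contraction coupling at 10.15. Largemyd 5 stood apart in endothelial markers at 8.99, fast fibre genes at 12.44 and glycolysis at 10.59, Dmdmdx 2 in imprinted growth genes at 9.69, and Dmdmdx 5 in skin markers at 6.76.

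In 39 cases the difference of a named gene changed with age by the test of the change itself (limma, adjusted p under 0.05), and 12 of them also passed without the later arrays with high Xist or marrow markers. The 12 were Tpsab1 (changes of -1.33 to 3 months and -1.21 to 6 months), Agtr2 to 6 months (-1.19), Cd28 (1.63 and 2.03), and, to 6 months, Trgv1 (1.82), Sntb2 (0.56), Svil (-0.64), Lyz1 (1.33), Stim1 (-0.62), Map1lc3a (-1.12) and Glo1 (-0.98). The other changes passed with all arrays in the fit and not without those arrays. Differences that were above 0 at 21 days became smaller or turned negative at 6 months in Mir136 (-1.58), Rps3a1 (-0.87), Trim63 (-1.60), Fbxo32 (-1.96), Mmp12 (-1.75), Myh8 (-1.26) and Hspb1 (-0.90), and in Agtr2 at 3 months (-1.19).

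Differences that were below 0 at 21 days moved up at 6 months in genes of interferon and antigen presentation, Ifi213 (2.05), Rtp4 (1.17), Oas2 (0.80), H2-DMa (1.18), H2-Eb1 (1.15) and Tap1 (1.03). The complement genes C4b (1.48) and Cfb (1.40), the killer cell genes Gzma (0.93), Klrk1 (0.77) and Klrb1c (0.58), and the adaptor Sh2d1b1 (1.47) moved up as well. So did Nxpe4 (1.11), Olfr1372-ps1 (0.75), Hexa (0.55), Il5ra (0.78), Vwf (0.70), Pdia4 (0.68) and Sqle (0.76).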

How the results depend on the processing

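No named gene that passed changed direction under an alternative run, and of those that did not pass Dag1 did. The split of calls turned from more lower to more higher with array medians subtracted (1021 higher, 832 lower) and without Largemyd 1 and 2, and was near even without the lymph node arrays. List medians changed sign under at least 1 alternative in 20 of 50 lists, of which 4 had a median over 0.1 in size. These were lymph node markers (-0.51, to 0.23 without the lymph node arrays and 0.05 with their covariate), neutrophil and marrow markers (-0.39, to 0.24 with the covariate), erythroid markers (-0.13, to 0.39 with the covariate and 0.02 without Dmdmdx 3) and cell cycle genes (-0.35, to 0.01 without Largemyd 1 and 2). Adipocyte markers went from 0.03 to -0.31 without Largemyd 1 and 2. The 1782 genes that passed at 21 days (773 higher, 1009 lower, 102 at 2-fold or more) became 734 with only the arrays of 21 days in the fit (343 higher, 391 lower, 58 at 2-fold or more) and 723 with only the 10 arrays compared (329 higher, 394 lower). Without the lymph node arrays 141 passed (71 higher, 70 lower, 27 at 2-fold or more), and without Largemyd 1 and 2, 555 (334 higher, 221 lower, 41 at 2-fold or more), where fewer arrays also give less power. With the lymph node marker mean as a covariate 1662 passed (594 higher, 1068 lower). Leaving out 1 array gave 819 to 2485 genes, 393 to 1063 of them higher, 426 to 1422 lower and 57 to 147 at 2-fold or more. The genes whose difference changed with age numbered 41 at 3 months and 2043 at 6 months. They numbered 8 at 3 months with array medians subtracted, 233 and 3244 with array weights, and 6 and 345 without the later arrays with high Xist or marrow markers. The cause of these shifts was not tested, and in the smaller fits lower power and the choice of arrays cannot be told apart. Of the genes that passed at 21 days, 104 passed in every alternative run. Among the 120 named genes that passed, 116 passed with array medians subtracted, 99 with array weights, 117 with a trended robust prior, 91 with the lymph node covariate and 120 with the mean of probe sets, and with the filter on low values the 111 that could be tested all passed. No paired analysis was possible because the array titles give the groups no shared replicate numbers. Signal over background could not be judged from RMA values, so low values have no stated limit of detection.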

Other observations

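Among the 104 genes that passed in every alternative run were several outside the lists. Pycard, the adaptor of the inflammasome, was lower in Largemyd by 1.13 on the log2 scale. Reln, the secreted protein reelin, was higher by 0.71, and Pes1, a factor of ribosome assembly, by 0.64. These genes were picked after their values were seen.

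Of the genes that passed at 21 days, 3 passed in the opposite direction at 3 months and 62 at 6 months, with all arrays in the fit. Klk1b22, a kallikrein, differed by 1.67 at 21 days and was the gene with the largest difference at the later ages among the 16 that passed at all 3 ages with and without the later arrays described.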
